A study of Mus musculus with 34 samples.

Results

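Among the regions counted for H3K27ac in mouse embryonic stem (ES) cells, 1088 were far higher in 1 line, the congenic line D2-13B6, than in the other 3. They were chosen by their H3K27ac values: off chromosomes 11, 13, X and Y, a mean of at least 2 CPM (the count in a region after scaling each library to a common total over regions) over the D2-13B6 libraries, and at least 3 times the mean plus 0.1 CPM of each of the other 3 lines. The 1088 regions, called members here, are 0.51% of the 213345 regions off those chromosomes and come from a list of 248336 in all. The same rule with another line as the high one found 157 regions for B6, 6 for D2 and 25 for B6-13D2. On the left-out chromosomes 215 further regions passed the same values and were not counted as members. Because H3K27ac in these libraries chose the members, it is described here without a test, while H3K9me3, the DNA sequence, the position and the libraries of separate lines were not used by the rule.

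Each of the 4 lines was 1 ES cell line. Line B6 5-1 is C57BL/6J (B6) and line D2 5-5 is DBA/2J (D2). Line QJ 6-1, here B6-13D2, has the genotype B6.D2-(rs30079041-rs51756099)/Bakr, a chromosome 13 segment from D2 on the B6 background. Line XE 2-4, here D2-13B6, is D2.B6-(rs29224292-rs13469455)/Bakr in the sample labels, the reciprocal exchange. The series text gives rs51756099 as the end marker of that segment instead. All lines grew in 15% fetal bovine serum with LIF, the MEK inhibitor PD0325901 at 1 μM and the GSK3 inhibitor CHIR99021 at 3 μM. H3K27ac was measured in 3 technical replicates per line, and H3K9me3 in 3 B6, 2 D2, 2 B6-13D2 and 3 D2-13B6 technical replicates. A separate set of libraries covered 3 B6 and 3 D2 lines for each mark. With 1 line per genotype, a difference of D2-13B6 from the others is a difference between lines, the congenic segment and the line itself cannot be told apart, and p-values measure the spread between technical replicates.

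Depth in regions was 8735674 to 11543469 counts per repeated H3K27ac library and 1538145 to 2185977 per repeated H3K9me3 library. At members the median count per H3K9me3 library was 16 to 22 in B6, D2 and B6-13D2 and 7 or 8 in D2-13B6. In H3K27ac, the closest pair of replicates in each line differed by less than sampling noise (chi-square per degree of freedom 0.905 to 0.967), and the other pairs of B6, D2 and B6-13D2 were at 1.005 to 1.027. Summing the closest pairs gave 1127 members, of which 1068 were among the 1088. In both marks the D2-13B6 library numbered 1 differed from its fellow replicates, with chi-square per degree of freedom of 2.806 and 2.791 in H3K27ac and 2.455 and 2.467 in H3K9me3. Without it the rule found 987 members, 973 of them shared. Summed H3K27ac near the starts of 8 ES cell genes was 745.0 to 892.9 CPM across libraries, and 871.7 to 892.9 CPM in D2-13B6. Over 8 fibroblast and feeder genes, 5 of which had a region, the sum was 9.14 to 11.09 CPM in B6, 24.26 to 28.04 in D2, 18.35 to 20.36 in B6-13D2 and 12.15 to 27.49 in D2-13B6, where replicate 1 was the lowest, and its part in the results was not tested. Col3a1, Postn and Lum had no region near their starts. Over 5 trophectoderm genes the sum was 23.24 to 29.01 CPM in D2-13B6, above every other library (13.7 to 17.74 in B6, 18.99 to 23.01 in D2 and 13.43 to 19.66 in B6-13D2). Cdx2, singled out among them after its values were seen, was at 15.78, 12.04 and 15.75 CPM in D2-13B6 and at most 11.45 CPM elsewhere. Eomes, Elf5, Gata3 and Hand1 overlapped B6, at 4.6 to 5.6, 0.39 to 0.78, 1.35 to 2.55 and 3.03 to 4.61 CPM in D2-13B6. In B6 they were at 3.54 to 5.76, 0.53 to 1.47, 1.6 to 2.83 and 3.31 to 4.04 CPM. The part of these genes in the results was not tested. Sums over neural, mesoderm and primitive endoderm genes in D2-13B6 were 23.45 to 29.22, 9.1 to 12.16 and 9.3 to 12.25 CPM, each overlapping or below the range of D2. The neural sums were above those of B6 (16.21 to 18.31 CPM) and B6-13D2 (17.5 to 20.92 CPM). Primitive endoderm sums were above B6-13D2 (7.21 to 8.18 CPM) and overlapped B6, and mesoderm sums overlapped both lines. Off the left-out chromosomes, the median log2 difference in H3K27ac between D2-13B6 and D2 lay from -0.05 to 0.04 on every chromosome.

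H3K27ac is the acetylation of histone H3 at lysine 27 and marks active promoters and enhancers. H3K9me3, trimethylation at lysine 9 of the same histone, marks heterochromatin and in ES cells covers many transposable elements, where it is laid down by SETDB1 after recruitment by zinc finger proteins and KAP1. LINE-1 elements are retrotransposons that encode their own reverse transcriptase. In the mouse their promoter is a row of short tandem repeats, called monomers, that stands before the coding part.

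The members shared a sequence. The stretch that follows is 208 bases of 1 member, the one that aligned to the most other members (960) among those with the commonest repeat period. A copy of the stretch spanning at least 100 bases at 80% identity or more lay in 924 of the 1088 members (84.9%). The same holds for 2478 of all 213345 regions (1.16%). It is called the unit here, and it is shown because most of the findings turn on it. It lies at chr15:21443619-21443826 on the plus strand of GRCm38.p6 (mm10, RefSeq), and capitals mark its 9 CpG dinucleotides, the sites of DNA methylation in mammals.
repeated unit: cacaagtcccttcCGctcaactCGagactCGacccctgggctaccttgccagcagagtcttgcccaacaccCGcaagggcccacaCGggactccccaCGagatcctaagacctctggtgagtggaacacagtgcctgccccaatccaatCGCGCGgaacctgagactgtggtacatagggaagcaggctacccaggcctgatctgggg

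Copies from 4 members with high H3K27ac in D2-13B6 are set out next in the orientation of the unit, with capitals for bases that differ from it or are inserted (missing bases are not marked). They are shown for the differences between copies of the unit. Identity to the unit is given over the alignment, with gaps counted as differences. The Mup6 copy (chr4:59971820-59971999, 180 bases, plus strand) was 89.6% identical to the unit, the Cntnap5b copy (chr1:102256005-102256186, minus strand) 94.5%, the Filip1 copy (chr9:79901335-79901534, plus strand) 91.8%, and the copy near 1700008P02Rik (chr3:6299890-6300097, plus strand) 94.7%. The first 3 of these hold 12, 10 and 12 CpGs and the last holds 12.
Mup6: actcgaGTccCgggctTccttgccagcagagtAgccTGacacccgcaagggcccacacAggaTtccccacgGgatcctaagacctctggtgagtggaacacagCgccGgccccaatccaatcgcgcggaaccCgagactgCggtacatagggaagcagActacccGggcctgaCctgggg
Cntnap5b: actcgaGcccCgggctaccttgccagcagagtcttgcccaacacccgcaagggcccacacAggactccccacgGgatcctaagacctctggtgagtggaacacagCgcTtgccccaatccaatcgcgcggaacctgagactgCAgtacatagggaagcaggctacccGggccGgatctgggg
Filip1: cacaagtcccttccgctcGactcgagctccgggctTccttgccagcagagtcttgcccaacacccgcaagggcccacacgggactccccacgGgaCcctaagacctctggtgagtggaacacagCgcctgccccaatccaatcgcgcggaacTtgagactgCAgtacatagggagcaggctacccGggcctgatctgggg
1700008P02Rik: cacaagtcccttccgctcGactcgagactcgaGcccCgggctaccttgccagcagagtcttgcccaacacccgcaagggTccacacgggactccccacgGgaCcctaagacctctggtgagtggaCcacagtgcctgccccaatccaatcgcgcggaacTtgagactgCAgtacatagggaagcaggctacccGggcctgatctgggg

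The unit was repeated in tandem. Of the 223 members of at least 600 bases, 168 had a repeat period that could be read from the sequence, and it was 208 bases in 67, 201 in 42 and 199 in 30. A member with the unit held a median of 1.22 copies, and the most was 6.64. The best copy in each of these 924 members was a median 93.91% identical to the unit. The copies lay on the plus strand in 437 members, on the minus strand in 486 and on both in 1. An open reading frame of at least 1000 codons followed the unit on the same strand within 8 kb in 575 of the 924 (62.2%). Such a frame stood before it on the same strand in 3, and on the other strand before it in 1 and after it in 4. In the 1554 regions that held the unit but were not members, 453 (29.2%) had a frame after it. Tandem units followed by a long frame on the same strand are the layout of a mouse LINE-1 promoter, but no repeat annotation was used, so the copies are not given a family name.

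The remaining 164 members were less plain. Of these, 105 held a shorter piece of the unit of 60 to 99 aligned bases, which brings the members with any such piece to 1029 (94.6%). Over all regions 2835 (1.33%) had a piece of that length or longer. In all, 1041 members aligned to another member and 47 aligned to none. The 164 were a median 42.42% soft-masked (lower-case, repetitive in the reference), against 100% for the members with the unit, and their median GC content was 48.74% against 61.36%.

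In the regions that another line marked alone, the unit lay in 30 of the 157 regions high only in B6 (19.1%), in 0 of 6 for D2 and in 0 of 25 for B6-13D2. The share of members with the unit was 73.3% at a fold of 2 (1613 members) and 88.3% at a fold of 5 (436 members). It was 89.5% at a minimum of 5 CPM, and 84.2% without replicate 1 of D2-13B6. In the genome off the left-out chromosomes the unit had 11911 copies in 4508 arrays (copies under 100 bp apart), of which 2202 overlapped a counted region and 721 a member.

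**Figure D1:**
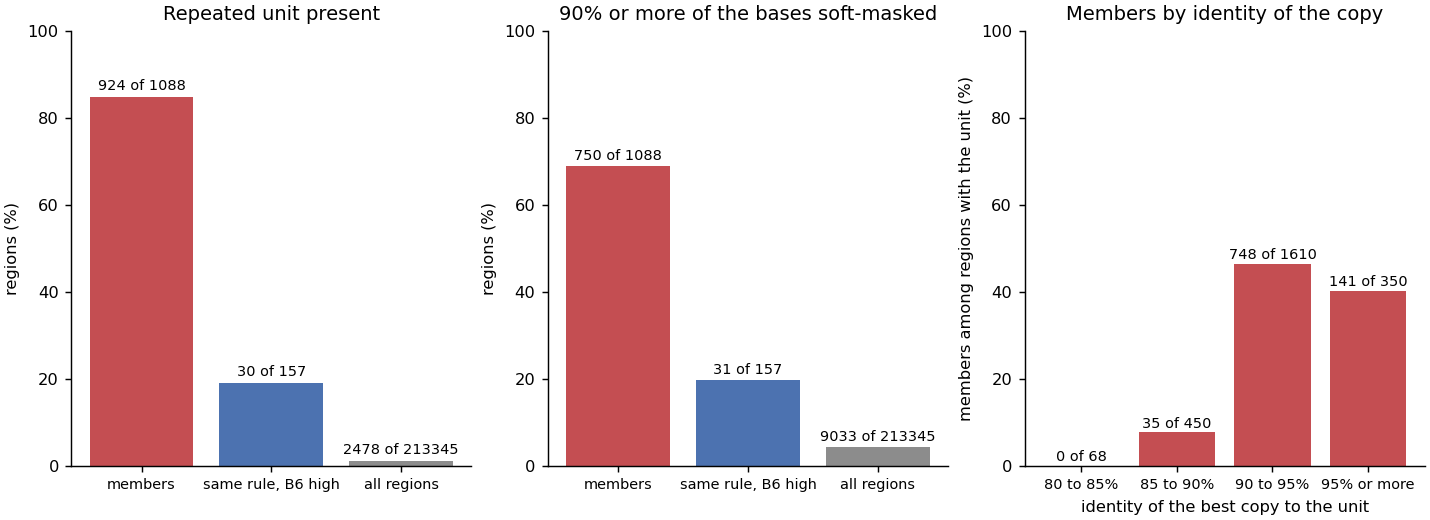
Percent of regions that hold the repeated unit (left) or are at least 90% soft-masked (middle), for the 1088 members, the 157 regions found by the same rule for B6 and all 213345 regions, and percent of the 2478 regions with the unit that are members, by identity of their best copy (right). The unit bar is at 84.9% for members and 1.16% for all regions, and no region of the class from 80 to 85% identity is a member.

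Within the regions that held the unit, membership differed by how close the copy was. Of copies 80 to 85% identical to the unit, 0 of 68 regions were members, of those at 85 to 90% 35 of 450 (7.78%), at 90 to 95% 748 of 1610 (46.5%), and at 95% or more 141 of 350 (40.3%). Among regions with a long reading frame after the unit 575 of 1028 (55.9%) were members, and among those without one 348 of 1446 (24.1%). In the class at 80 to 85% identity, the median H3K27ac over regions was 1.1 CPM in B6, 0.55 in D2, 0.42 in B6-13D2 and 0.8 in D2-13B6. In the same order it was 0.89, 0.43, 0.33 and 0.93 CPM at 85 to 90%, 0.89, 0.64, 0.27 and 3.33 CPM at 90 to 95%, and 0.89, 0.57, 0.27 and 2.8 CPM at 95% or more. The median in D2-13B6 was thus highest in the class at 90 to 95%. The unit was taken from members, so closeness to it is in part closeness to members.

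The median H3K27ac of the members was below the median of all regions in 3 lines and above it in D2-13B6. The median CPM over all 1088 members was 0.79, 0.85 and 0.68 in the B6 libraries, 0.80, 0.92 and 0.86 in D2, and 0.18, 0.27 and 0.17 in B6-13D2. It was 6.47, 5.19 and 5.28 CPM in D2-13B6. Every member had each D2-13B6 library above each of the 9 others, which held for 3.3% of all regions, but the rule largely sets this count. B6-13D2 had the lowest mean of the 4 lines at 1036 members. The rule keeps D2-13B6 from being lowest but does not order the other lines, and the share over all regions was not counted. Other regions with the unit also had their lowest median line mean in B6-13D2, at 0.3 CPM. There it was 0.97 CPM in B6, 0.43 in D2 and 1.39 in D2-13B6. At members the highest of the lines other than D2-13B6 was D2 at 651, B6 at 430 and B6-13D2 at 7. A mean under 1 CPM in all 3 other lines was found at 530 members, and 294 were under 1 CPM in each of those 9 libraries. Such levels are ordinary in this list, since the median line mean over all regions was 1.13 CPM in B6, 0.93 in D2, 0.92 in B6-13D2 and 0.89 in D2-13B6.

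Levels in D2-13B6 covered a wide range. The mean was 2 to 5 CPM at 457 members, at least 10 CPM at 168 and at least 20 CPM at 33. The ratio of the D2-13B6 mean to the highest other line mean plus 0.1 CPM had a median of 4.59, reached 5 at 436 members and 10 at 53, and was 18.97 at most. Replicate 1 was the highest D2-13B6 library at 863 members. A level of 2 CPM was reached in 1082 members in replicate 1, in 1038 in replicate 2 and in 1055 in replicate 3. Nearest to the level threshold were a member near Dyrk2 (chr10:118910025-118910689) at 2.023 CPM and a region near C1galt1 (chr6:7923894-7924134) left out at 1.996 CPM. At the ratio threshold the nearest were a member near Gje1 (chr10:15625392-15625586) at 3.002 and a region near Adgrl3 (chr5:79249540-79249943) left out at 2.996.

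The members with and without the unit showed the same order of lines. With it, the median H3K27ac in D2-13B6 was 6.67, 5.4 and 5.58 CPM. Without it, the D2-13B6 medians were 4.36, 3.84 and 3.67 CPM, and those of the other 9 libraries 0.26 to 0.76 CPM. At the 47 members that aligned to no other member the D2-13B6 libraries were at 5.59, 4.88 and 4.6 CPM. At the 1554 regions with the unit that missed the rule, which limits their level in D2-13B6, the medians were 1.67, 1.25 and 1.27 CPM in D2-13B6 against 1.02, 0.96 and 0.91 in B6, 0.4, 0.57 and 0.43 in D2, and 0.27, 0.36 and 0.26 in B6-13D2. Over all 2478 regions with the unit, of which 924 are members chosen by this level, the D2-13B6 medians were 3.04, 2.28 and 2.35 CPM and those of the other libraries 0.26 to 0.96 CPM. How reads that match many near-identical copies were placed is not given in the sources used here, so the level of a single copy is less certain than the level summed over copies.

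**Figure D2:**
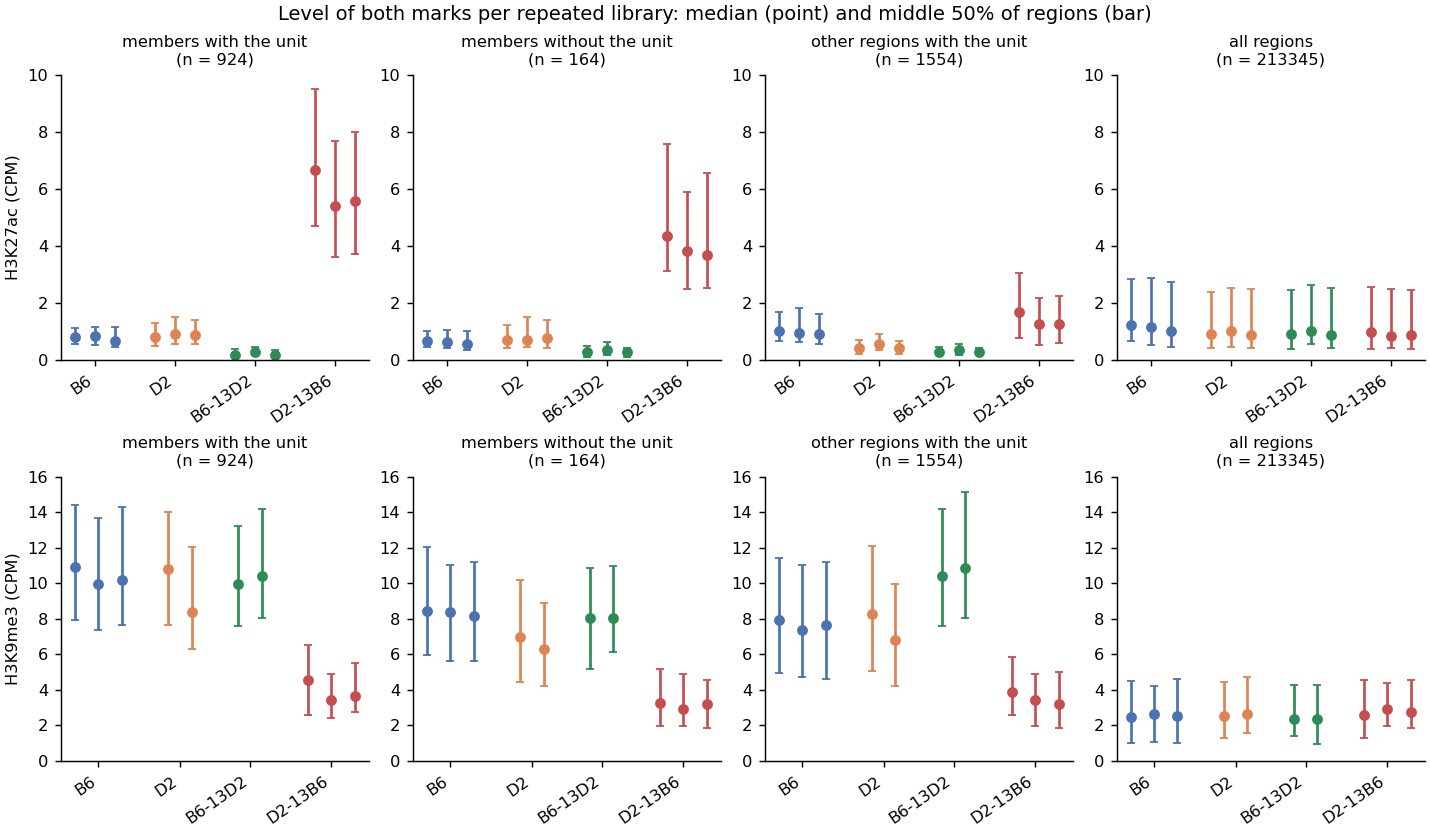
Median (point) and middle 50% of regions (bar) of H3K27ac (upper row) and H3K9me3 (lower row) in CPM in each repeated library, grouped by line, for members with the unit, members without it, other regions with the unit and all regions. In members with the unit the D2-13B6 libraries stand at 5.4 to 6.67 CPM of H3K27ac, and in H3K9me3 they are the lowest.

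The 12 members with the highest H3K27ac in D2-13B6 were 7 with the unit and 5 without. The highest, chr16:13012987-13015265, lies outside genes, 94.4 kb from the start of Ercc4, which encodes an endonuclease of nucleotide excision repair. Its H3K27ac was 49.3, 61.95 and 63.1 CPM in D2-13B6, 18.88, 17.86 and 18.12 in D2, 11.53, 9.88 and 11.3 in B6 and 8.12, 8.46 and 9.01 in B6-13D2. D2-13B6 did not overlap the other lines, as at every member, which the rule largely sets. This member was well marked in all lines. Its H3K9me3 was 20.15, 17.05 and 17.38 CPM in D2-13B6 and 19.06 and 21.48 CPM in D2, with a log2 fold change of -0.12 ± 0.26 (SE) and an adjusted p of 0.934 (edgeR, Benjamini-Hochberg). It was higher in B6, at 36.28, 35.18 and 28.06 CPM, and in B6-13D2, at 31.22 and 33.99 CPM. D2-13B6 was called lower against both, by -0.84 ± 0.21 from B6 (edgeR adjusted p = 0.00125) and -0.8 ± 0.23 from B6-13D2 (adjusted p = 0.0056).

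Next came chr17:17343102-17344544, in an intron of the gene model AC154200.1 and 29.8 kb from the start of Riok2, a kinase of ribosome maturation. It had 47.05, 45.45 and 44.61 CPM of H3K27ac in D2-13B6, 5.79, 5.95 and 6.69 in D2, 3.5, 4.04 and 3.42 in B6 and 1.37, 1.46 and 0.78 in B6-13D2. A region in an exon of Xpa, whose product verifies DNA damage in nucleotide excision repair (chr4:46185014-46186948), had 29.99, 26.67 and 30.52 CPM in D2-13B6 and 3.98 to 10.09 CPM in the other libraries. The other members without the unit lie near Wdr70 (chr15:8101524-8103306), with 33.13, 32.27 and 28.76 CPM in D2-13B6 and 3.29 to 6.56 CPM elsewhere, and near Lrguk (chr6:33997646-33999338), with 32.84, 29.36 and 31.21 CPM and 1.92 to 10.61 CPM elsewhere. The Wdr70 member had less H3K9me3 in D2-13B6 (17.55, 12.18 and 10.52 CPM) than in D2 (26.69 and 28.29 CPM), with a log2 fold change of -1.02 ± 0.25 and an adjusted p of 0.0085 (edgeR). The members at Riok2, Lrguk and Xpa were not called against D2, with log2 fold changes of -0.86 ± 0.31, -0.47 ± 0.36 and 0.25 ± 0.62 (edgeR adjusted p of 0.152, 0.7 and 0.942). Of all 12 members, 7 were called lower in H3K9me3 against D2, 10 against B6 and 10 against B6-13D2, where 1.74%, 12.2% and 11.8% of all regions tested were called lower.

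The third of the 12 lies in an intron of Mup6, 1 of the major urinary protein genes, at chr4:59971189-59972719, and holds 3.09 copies of the unit. Its H3K27ac was 32.74, 31.75 and 31.99 CPM in D2-13B6, 4.86, 3.51 and 5.25 in B6, 3.3, 3.09 and 2.91 in D2, and 1.37, 1.82 and 0.61 in B6-13D2. H3K9me3 ran the other way, at 7.15, 4.87 and 6.86 CPM in D2-13B6, 29.23 and 24.62 in D2, 41.75, 29.4 and 23.98 in B6, and 34.53 and 30.22 in B6-13D2. No D2-13B6 library reached the level of any other library in H3K9me3, and the log2 fold change from D2 was -2.03 ± 0.3 (edgeR, adjusted p = 6.7e-08).

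Of the other members of the 12 with the unit, 3 lay in introns. Near Cntnap5b, a neurexin-like adhesion protein (chr1:102255449-102256852, 2482.7 kb from its start), H3K27ac was 25.68, 29.99 and 29.84 CPM in D2-13B6 and 0.55 to 3.19 CPM elsewhere. In an intron of Sh3rf3, a ubiquitin ligase (chr10:59034162-59035142), it was 28.72, 24.7 and 28.96 CPM against 0.18 to 2.02 CPM. In an intron of Filip1, a filamin-binding protein (chr9:79901262-79902147), it was 27.15, 26.04 and 24.36 CPM against 0.09 to 1.49 CPM, and its ratio of 18.1 was the largest among these 12. Gng12, a G protein gamma subunit, held a member in an intron (chr6:67007778-67008301) with 29.8, 25.84 and 27.1 CPM in D2-13B6, 4.4, 2.86 and 4.1 in D2, and 0.26 to 1.14 CPM in B6 and B6-13D2. Near Epha6, an ephrin receptor (chr16:60729947-60731676), which holds 6.05 copies of the unit, it was 30.58, 25.11 and 24.85 CPM against 0.35 to 2.87 CPM. Near Grxcr1, a gene of the hair cells of the inner ear (chr5:68220712-68221363), D2 came closest to D2-13B6, at 6.59, 6.52 and 4.96 CPM against 28.52, 21.79 and 28.08 CPM.

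**Figure D3:**
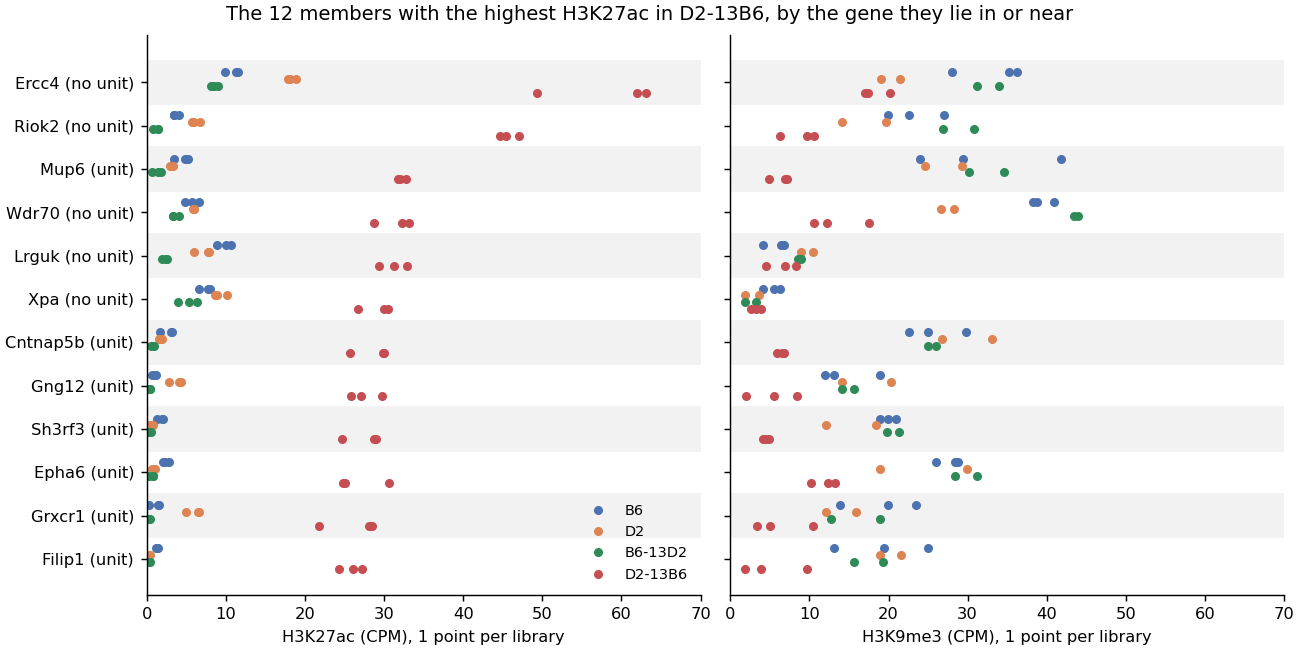
H3K27ac (left) and H3K9me3 (right) in CPM, 1 point per repeated library, at the 12 members with the highest mean H3K27ac in D2-13B6, named by the gene they lie in or nearest to and marked by whether they hold the unit. D2-13B6 is above every other library in H3K27ac at each of the 12, which the rule largely sets. In H3K9me3 all its libraries are below every other library at 9 of the 12, the exceptions being Ercc4, Lrguk and Xpa. The same held for 729 of the 1088 members and 2% of all regions.

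The 8 members with the largest ratios all held the unit, and the means of the other lines there were 0.06 to 1.33 CPM. In an intron of Nav3, a neuron navigator gene (chr10:110015149-110015347), H3K27ac was 10.0, 9.75 and 9.1 CPM in D2-13B6, 0.34, 0.42 and 0.46 in B6, 0.5, 0.11 and 0.43 in D2, and 0.0, 0.09 and 0.09 in B6-13D2, a ratio of 18.97. Near Lrrc7, a gene of the postsynaptic density (chr3:158737882-158738076), D2-13B6 was at 7.55, 5.19 and 5.48 CPM and no other library passed 0.34 CPM. Near the olfactory receptor gene Olfr514 (chr7:108788872-108789140), D2-13B6 was at 13.92, 13.07 and 13.6 CPM and the others at 0.0 to 1.26 CPM. In an intron of Alpk1, a kinase of innate immune sensing (chr3:127772138-127773005), H3K27ac was 23.23, 19.2 and 22.11 CPM in D2-13B6 and 0.17 to 1.7 CPM elsewhere. Its H3K9me3 was 1.3, 5.85 and 6.4 CPM in D2-13B6, 25.42 and 20.43 in D2, 16.9, 19.95 and 18.87 in B6 and 17.03 and 20.77 in B6-13D2. Each D2-13B6 library was below every library of the other lines, and the log2 fold change from D2 was -2.16 ± 0.33 (edgeR, adjusted p = 1.58e-07), the smallest adjusted p of the 8. Of the 8 members, 6 were called lower in H3K9me3 against D2, 7 against B6 and 5 against B6-13D2, where 1.74%, 12.2% and 11.8% of all regions tested were called lower. The Lrrc7 member was called against no line, with log2 fold changes of -1.14 from D2, -0.65 from B6 and 0.09 from B6-13D2 (edgeR adjusted p of 0.0939, 0.193 and 0.917), and the 1700008P02Rik member was not called against D2 (adjusted p = 0.121).

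H3K9me3, which the rule did not use, was lower in D2-13B6 at most members. The median CPM over the 1088 members was 4.55, 3.41 and 3.66 in the D2-13B6 libraries. It was 10.44, 9.45 and 10.2 in B6, 10.17 and 8.38 in D2, and 9.46 and 10.39 in B6-13D2. Over all 213345 regions the medians were 2.6, 2.92 and 2.74 CPM in D2-13B6 and 2.36 to 2.63 CPM in the other lines, so the members stood well above the typical region in B6, D2 and B6-13D2 and nearer to it in D2-13B6. At 729 of the 1088 members every D2-13B6 library was below each of the 7 others, which held for 2% of all regions (4259 of 213345).

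Against D2, the line with the same background, edgeR called H3K9me3 lower in D2-13B6 at 379 of the 1073 members tested (35.3%) and higher at 0. The background over all 86874 regions tested was 1.74% lower and 0.428% higher. At an unadjusted p under 0.05, edgeR had 765 members lower and 0 higher, and DESeq2 called 157 lower and 0 higher after adjustment. The median log2 fold change was -1.14 over the members tested (middle 50% -1.54 to -0.78) and 0.03 over all regions tested. The count depended on single libraries: it was 131 without replicate 1 of D2, which leaves D2 with 1 library, and 238 without replicate 2 of D2-13B6, while it was 402 without replicate 1 of D2-13B6. With no filter on low counts all 1088 members were tested, and 316 were lower. The medians across these settings stayed between -1.28 and -1.07.

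Against B6, 842 of the 1073 members were called lower (78.5%; background 12.2%) and 0 higher (background 8.77%), with a median log2 fold change of -1.4 against 0.02 over all regions tested. The unadjusted counts in edgeR were 942 lower and 1 higher, and DESeq2 called 505 lower and 0 higher. Against B6-13D2, 764 were called lower (71.2%; background 11.8%) and 1 higher (background 8.62%), with a median of -1.3 against 0.03. Without replicate 1 of D2-13B6 the calls numbered 827 against B6 and 759 against B6-13D2. Without replicate 2 of B6-13D2, which leaves that line with 1 library, 506 were called. The 1 member called higher lies near Tmem160 (chr7:16441743-16443748, no unit), where H3K9me3 was 8.45, 2.44 and 4.57 CPM in D2-13B6 and 1.89 and 1.42 in B6-13D2 (log2 fold change 1.57 ± 0.57, edgeR adjusted p = 0.0359). All 3 comparisons use the same D2-13B6 libraries. No input library was used here, so the number of copies and the mark per copy cannot be told apart.

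Lower H3K9me3 was also found at regions that held the unit and were not members. Against D2, edgeR called 356 of 922 members with the unit lower (38.6%, median log2 fold change -1.18) and 23 of 151 members without it (15.2%, median -0.86). Of the 1512 tested regions with the unit that were not members, 311 were called lower (20.6%, median -0.96). Of the other regions that were at least 90% soft-masked but held no unit, 45 of 5118 were called lower against D2 (0.879%, median -0.12), 1169 against B6 (22.8%, median -0.43) and 1094 against B6-13D2 (21.4%, median -0.45), the last 2 shares being above the backgrounds of those comparisons. Against B6-13D2 the non-member regions with the unit were called lower in 1175 of 1512 (77.7%, median -1.49), and members with the unit in 669 of 922 (72.6%, median -1.32). The 47 members that aligned to no other member had a median of -0.57 against D2, with 2 of 37 tested called lower (5.41%). The same 37 had 15 called lower against B6 (40.5%, median -0.87) and 15 against B6-13D2 (40.5%, median -0.86), where the backgrounds were 12.2% and 11.8%. Members without the unit were called lower in 102 of 151 against B6 (67.5%) and 95 of 151 against B6-13D2 (62.9%), and non-member regions with the unit in 785 of 1512 against B6 (51.9%).

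**Figure D4:**
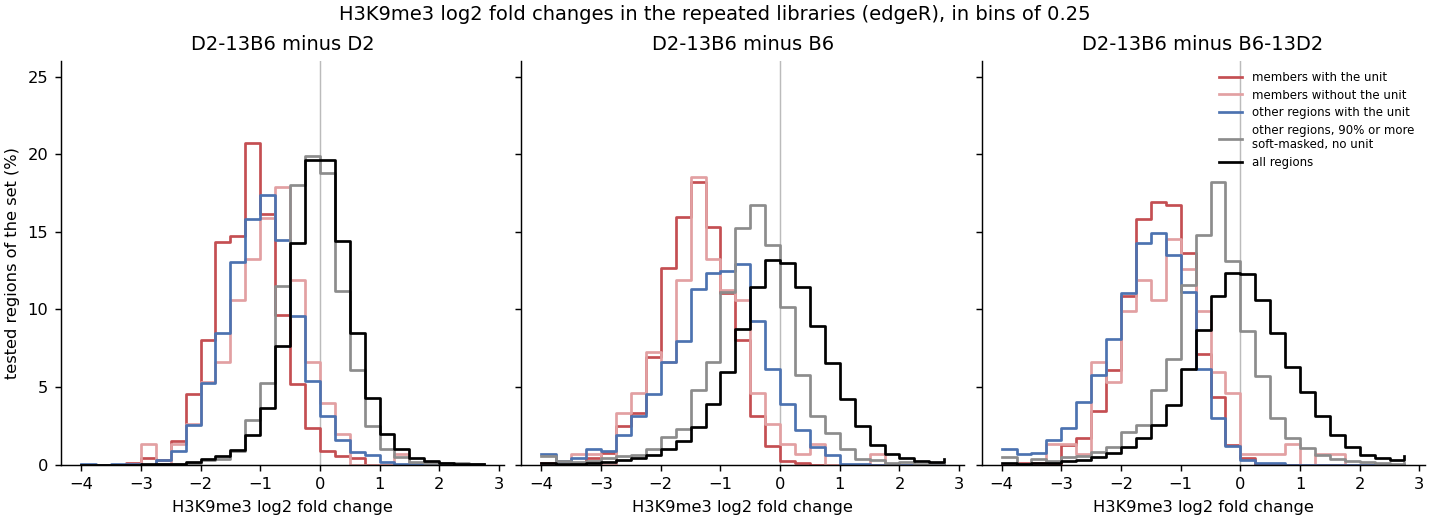
Distribution of H3K9me3 log2 fold changes (edgeR, bins of 0.25) between D2-13B6 and D2, B6 or B6-13D2, for members with and without the unit, other regions with the unit, other soft-masked regions without it and all regions, as percent of the tested regions of each set. Members with the unit have medians of -1.18, -1.41 and -1.32 against D2, B6 and B6-13D2, other regions with the unit -0.96, -1.02 and -1.49, and all regions lie near 0.

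The 4 members with the smallest adjusted p against D2 all held the unit and included the Mup6 and Cntnap5b members. At the Cntnap5b member H3K9me3 was 6.5, 6.82 and 5.95 CPM in D2-13B6, 33.04 and 26.72 in D2, 29.82, 22.58 and 25.0 in B6 and 26.01 and 25.02 in B6-13D2 (log2 fold change from D2 -2.14 ± 0.29, edgeR adjusted p = 1.95e-09). In an intron of the gene model Gm4681, 95.6 kb from the start of the splicing regulator Mbnl2 (chr14:120178635-120180065), it was 5.85, 4.39 and 8.23 CPM against 33.04 and 24.1 in D2 (-2.11 ± 0.29, edgeR adjusted p = 8.02e-09). Near Bmper, a secreted regulator of BMP signalling (chr9:22903272-22903676), it was 2.6, 2.92 and 0.91 CPM against 19.06 and 12.57 in D2 (-2.81 ± 0.41, edgeR adjusted p = 7.21e-08). In all 4 the D2-13B6 libraries were below every library of the other 3 lines, which held for 729 of the 1088 members and 2% of all regions. The choice of these 4 by adjusted p against D2 favours this.

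Members came in groups along the chromosomes. Joining members under 20 kb apart gave 746 groups, of which 500 were single members and 246 held 588 members together. There were 17 groups of at least 4. The largest held 13 members over 10772 bp, chr3:6297212-6307983, outside genes and 312.5 to 322.9 kb from the start of 1700008P02Rik, and 12 of the 13 held the unit, all on the plus strand. Others were 7 members in Filip1 (chr9:79899235-79904057), 6 near 9130204L05Rik (chr3:91094629-91100310), 5 near Grxcr1 (chr5:68219399-68221785) and 5 in or near Gng12 (chr6:67006632-67010054). Neighbours within such a group share 1 stretch of sequence and are not separate observations.

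In the largest group, H3K27ac in D2-13B6 was highest at chr3:6299838-6301035, at 21.47, 20.65 and 18.98 CPM, where the other 9 libraries were at 0.18 to 2.8 CPM. H3K9me3 there was 4.55, 4.87 and 4.57 CPM in D2-13B6, 13.34 and 13.62 in D2, 22.86, 23.1 and 25.51 in B6, and 22.23 and 28.33 in B6-13D2. The log2 fold change was -1.46 ± 0.36 from D2 (edgeR adjusted p = 0.00698) and -2.37 ± 0.3 from B6-13D2 (adjusted p = 1.08e-10). The fitted log2 fold change against D2 was below 0 at each of the 13 members, and 6 of them were called (background 1.74%). Against B6, 13 of the 13 were called lower (background 12.2%), and against B6-13D2 12 were (background 11.8%). Across the group H3K27ac in D2-13B6 ranged from 3.11 to 21.47 CPM, and no library of another line passed 2.8 CPM.

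**Figure D5:**
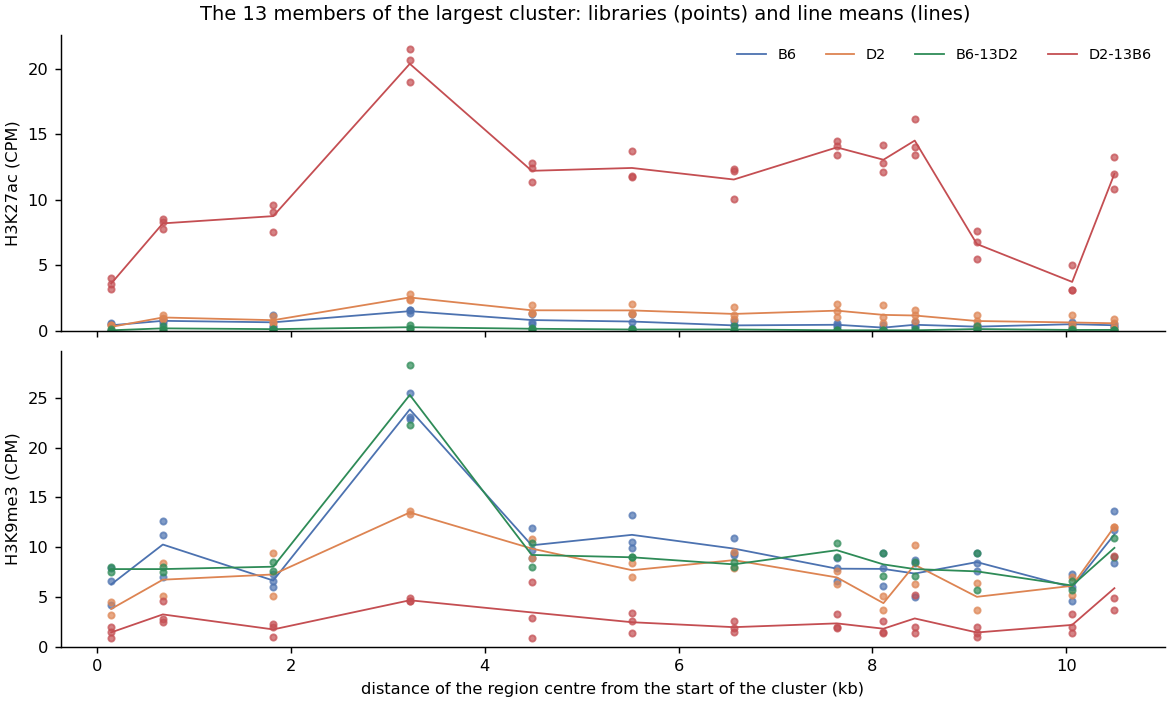
H3K27ac (upper) and H3K9me3 (lower) in CPM at the 13 members of the largest group, by distance of the region's centre from the start of the group in kb, with libraries as points and line means as lines. D2-13B6 reaches 21.47 CPM of H3K27ac where no other library passes 2.8 CPM, and its H3K9me3 line runs lowest.

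By position the members were far from the starts of protein-coding genes. Of the 1088, 750 (68.9%) lay outside genes, against 39.9% of all regions, 268 (24.6% against 36.0%) in introns of protein-coding genes, 52 in introns of other genes, 8 in coding exons (0.735% against 11.9%), 8 in exons of other genes and the remaining 2 in other parts of protein-coding exons. None was within 1 kb of the start of a protein-coding gene, where 6.38% of all regions lay, and 40 were within 10 kb (3.68% against 21.1%). The median distance to such a start was 172532.5 bp, against 37473 bp, and 684 members (62.9%) were over 100 kb away. Of the 222 members with the unit in introns of protein-coding genes, the unit lay on the strand of the gene in 63 (28.4%) and on the other strand in 159. For regions with the unit that were not members the share on the strand of the gene was 32.7% (96 of 294).

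The members were narrow, repetitive and rich in CpG. Their median width was 356 bp against 548 bp for all regions, the median soft-masked share 100% against 15.61%, the GC content 60.52% against 48.18%, and CpGs 4.94 per 100 bases against 1.24. At least 90% of the bases were soft-masked in 750 members (68.9%), against 4.23% of all regions. Per 1000 regions, members were most frequent on chromosome 3 (8.98, or 123 members) and chromosome 4 (6.78, or 105), and least on chromosome 2 (2.86, or 53) and chromosome 19 (1.92, or 12). As a share of the regions with the unit on the same chromosome the members ranged from 26.5% on chromosome 2 to 46.0% on chromosome 7.

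Short transcription factor motifs were searched on both strands in the central 300 bases of every region. The E-box CACGTG was found in 104 members (9.56%, against 5.22% of all regions). The other motifs were rarer in members than in all regions. AP-1 (TGANTCA) was in 2.94% against 13.78%, the GATA motif (AGATAA) in 2.85% against 12.12%, the Klf-type motif (CCNCACCC) in 2.02% against 15.23%, the TEAD-type motif (GGAATG) in 4.32% against 20.1% and the Sox-type motif (CATTGT) in 3.95% against 17.38%. The octamer (ATGCAAAT) was in 0.46% against 3.25%. The Esrrb-type motif TCAAGGTCA and the Ets-type motif CCGGAAGT were in 0 members, against 1.38% and 0.75% of all regions, and the CRE TGACGTCA was in 0.18% against 0.43%. Members differ from all regions in width, base composition and the shared unit, whose part in these shares was not tested, and a match is not a bound site.

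Over all lists together, the share of members with a known developmental or pluripotency gene as host or nearest gene was close to that of all regions, while single lists were above or below it on few members. Over 10 lists of 201 genes (pluripotency, germ layers, trophectoderm, the 2-cell-like state, germline, fibroblasts and signalling), 22 members (2.02%) had a listed gene as host or nearest gene, against 1.82% of all regions. By list the members numbered 2 near Nr5a2 of the naive pluripotency list (0.184% of members against 0.306% of all regions), 5 neural (0.46% against 0.178%), 4 of the 2-cell-like list (Zfp352 and Zscan4b, 0.368% against 0.0483%) and 3 mesoderm (0.276% against 0.124%). There were 2 members (0.184%) each for formative, endoderm, fibroblast and signalling genes, against 0.248%, 0.198%, 0.132% and 0.433% of all regions, and 0 for trophectoderm and germline, against 0.152% and 0.0487%. The shares were not tested. The member 261.0 kb from Cxcr4, a chemokine receptor (chr1:128853258-128854151, with the unit), had 20.68, 20.44 and 20.45 CPM in D2-13B6 and 0.35 to 2.86 CPM elsewhere, and H3K9me3 of 5.85, 8.28 and 4.57 CPM against 12.71 and 16.76 in D2 (log2 fold change -1.19 ± 0.34, edgeR adjusted p = 0.0305). The member 438.7 kb from Zfp352, a gene of the 2-cell embryo (chr4:90657563-90659220, with the unit), had 9.41, 5.5 and 6.36 CPM of H3K27ac in D2-13B6 and 0.17 to 1.81 CPM elsewhere. Its H3K9me3 was not called lower against D2 (log2 fold change -0.78 ± 0.29, edgeR adjusted p = 0.173) and was called lower against B6 (-1.27 ± 0.24, adjusted p = 1.24e-05). In a coding exon of Grhl2, a transcription factor of epithelia and the formative epiblast (chr15:37347243-37348035, no unit), H3K27ac was 8.23, 8.51 and 6.55 CPM in D2-13B6 and 1.0 to 2.48 CPM elsewhere, and H3K9me3 was 9.75, 9.26 and 8.23 CPM against 10.17 and 8.91 in D2 (log2 fold change -0.02 ± 0.34, edgeR adjusted p = 0.996). At 24.7 kb from the neural factor gene Pou3f2 (chr4:22462571-22463653, with the unit), H3K9me3 was 2.6, 3.9 and 5.49 CPM in D2-13B6 against 17.16 and 12.57 in D2 (-1.75 ± 0.37, edgeR adjusted p = 0.000673). Another member with the unit, 625.1 kb from Pou3f2 (chr4:23113504-23113760), was called against no line, at -0.25 ± 0.37 from D2 (edgeR adjusted p = 0.89), 0.03 ± 0.33 from B6 (0.955) and -0.43 ± 0.34 from B6-13D2 (0.399). Of the 12 members of these lists with the highest H3K27ac in D2-13B6, 3 were called lower in H3K9me3 against D2, 10 against B6 and 8 against B6-13D2, beside 35.3%, 78.5% and 71.2% of all members tested and 1.74%, 12.2% and 11.8% of all regions tested.

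The libraries of separate lines show what the members were like in 3 B6 and 3 D2 lines, none of them congenic. H3K9me3 at the members was similar in both strains, with medians of 8.74, 7.56 and 6.52 CPM in B6 and 7.94, 8.21 and 9.59 CPM in D2. Of the 874 members tested, edgeR called 65 higher in D2 (7.44%; background 17.3%) and 38 lower (4.35%; background 17.4%), and the median log2 fold change was 0.13 against 0.0 over all regions tested. Both shares are below the background. The split moved with the settings: 86 higher and 32 lower with library totals as the scaling, 29 and 48 without replicate 3 of B6, and 36 and 27 with no filter and all 1088 members tested. The medians of all 6 libraries, 6.52 to 9.59 CPM, are those of a different table from the repeated libraries, so the difference from D2-13B6 was not tested across them. Regions with the unit that were not members differed more between the strains. Of 1338 tested, edgeR called 393 higher in D2 (29.4%; background 17.3%) and 104 lower (7.77%; background 17.4%). Their median log2 fold change was 0.39.

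Of the members called, 51 of the 65 and 27 of the 38 held the unit, as did 745 of the 874 tested. The shares called by edgeR were 6.85% higher and 3.62% lower with the unit, and 10.9% and 8.53% without it. The 6 members with the smallest adjusted p did not hold the unit. Near Lrfn3, a synaptic adhesion protein (chr7:30366100-30367362), H3K9me3 was 42.19, 42.59 and 42.39 CPM in the D2 lines and 2.02, 8.82 and 2.37 CPM in the B6 lines (log2 fold change 3.16 ± 0.29, edgeR adjusted p = 1.47e-11). Near Usp38, a deubiquitinase (chr8:80972459-80973601), it was 39.71, 34.78 and 42.89 CPM in D2 and 6.72, 5.04 and 6.52 CPM in B6 (2.58 ± 0.25, edgeR adjusted p = 4e-11). In an intron of Cdan1, whose product binds the histone chaperone ASF1 (chr2:120826874-120827407), the order was the reverse, with 16.13, 15.75 and 14.82 CPM in B6 and 0.0, 0.0 and 0.5 CPM in D2 (edgeR adjusted p = 2.01e-11). In each of these 3 members the strains did not overlap, which the choice of members by adjusted p in this comparison makes likely. Over all regions tested, edgeR called 17.3% higher in D2 and 17.4% lower. The other 3 of the 6 were higher in D2: near Zcchc4, a methyltransferase of ribosomal RNA (chr5:52772872-52773546), at 21.34, 18.76 and 22.2 CPM against 1.34, 0.63 and 2.96 in B6, near Tmem160 at 24.82, 28.91 and 33.3 CPM against 0.0, 6.3 and 2.37, and over the T cell receptor segment Trav18 (chr14:53830675-53832863) at 31.27, 26.57 and 36.33 CPM against 6.72, 8.19 and 3.56. Their log2 fold changes were 3.49 ± 0.38, 3.19 ± 0.36 and 2.25 ± 0.27, all called by edgeR.

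The H3K27ac libraries of separate lines have their own list of regions, which overlapped 21 members (1.93%), against 40.8% of all regions, and only 3 of the 21 held the unit. These lines include B6 5-1 and D2 5-5, in which the rule limits H3K27ac at members, so the rule bears on this overlap. Of 20 overlapped regions tested, edgeR called 12 higher in D2 (background 24.3%) and 4 lower (background 25.0%), with a median log2 fold change of 0.52 against -0.01 over all regions tested. The region over the Cdan1 intron member had 22.34, 21.01 and 19.22 CPM in D2 and 3.24, 2.72 and 3.58 CPM in B6 (log2 fold change 2.72 ± 0.12, edgeR adjusted p = 6.16e-26), H3K9me3 at the same member being lower in D2. Over the member near Usp38 at chr8:80970948-80972386, H3K27ac was 6.19, 6.24 and 5.91 CPM in D2 and 1.56, 2.78 and 2.56 in B6 (1.44 ± 0.17, edgeR adjusted p = 5.99e-10), and over the member near Lsm14a, a protein of P-bodies (chr7:34403667-34404799), 8.55, 9.08 and 8.78 CPM against 3.35, 4.21 and 2.43 (1.42 ± 0.15, edgeR adjusted p = 1.23e-11). Over the member near D16Ertd472e (chr16:78492083-78493248), which holds the unit but overlaps its region by 51 bp, the D2 lines were lower, at 11.17, 15.32 and 15.66 CPM against 27.17, 24.22 and 21.93 (-0.78 ± 0.1, edgeR adjusted p = 4.3e-09). In 0 of the 21 was D2 203 or D2 2-9 above 2 times the level of D2 5-5, the D2 line of the repeated libraries. The 2 sets of libraries used different H3K27ac antibodies, so their levels were not compared.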

How the data were processed

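ChIP-seq of H3K27ac and H3K9me3 came as 4 deposited tables with 34 libraries; the deposited values are whole-number read counts, and duplicates had been removed, per the file headers. The submitters' processing notes name Trimmomatic 0.39, HISAT2 2.2.1, MACS 1.4.2, bedtools 2.9.2, edgeR and the build mm10. How reads with several matches were placed is not given in the sources used here. Columns that matched no sample (3) were not used. The members and lists were chosen with earlier results of these data known.

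H3K9me3 in the repeated libraries, and both marks in the separate lines, went into edgeR 4.0.16 (R 4.3.3): quasi-likelihood F-test, TMM scaling, minimum count 10, minimum total count 15, two-sided p-values adjusted by Benjamini-Hochberg over the whole table, called under 0.05. All 4 lines shared 1 fit. Errors of log2 fold changes are SE. Alternatives included DESeq2 1.42.0, other scalings and filters, leaving out each library and a replicate block. The script was tested on simulated data. Sequences came from RefSeq GRCm38.p6, aligned with blastn 2.17.0; genes came from GENCODE M21 and the gene of a region is its protein-coding host or else the nearest by start. SEs include the spread between libraries as well as counting error.

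Named regions were the 12 members highest in D2-13B6, the 8 of largest ratio, up to 4 in each direction by adjusted p against D2, up to 6 in each strain contrast, up to 12 with a listed gene, those nearest each threshold and the largest group; a selection of these is described, and some items are not reported here.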

Additional observations from a re-analysis of the deposited data

How the results depend on the processing

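The members found by the rule numbered 436 at a fold of 5, 631 at a minimum of 5 CPM and 581 when every D2-13B6 library had to pass against every other library, all stricter by construction, and 987 to 1139 with each library left out. Members called in H3K9me3 against D2 (379) numbered 165 where a mean of 20 counts was required (292 tested), 157 with DESeq2 and 131 to 402 with each library left out. Against B6 (842) these were 235, 505 and 666 to 868, and against B6-13D2 (765) 207, 385 and 506 to 804. In the separate lines, H3K9me3 calls (103) numbered 63 with no filter, 51 at a mean of at least 20 counts, 38 with DESeq2 and 77 to 108 with each library left out. The 16 called regions of H3K27ac numbered 16 to 17 with each library left out, 14 with DESeq2 and 12 where the overlap had to cover 50% of the member. The cause of the lower counts with DESeq2 was not tested. No result changed direction among the named members, of whose alternatives 75 against D2, 26 against B6, 41 against B6-13D2, 28 in H3K9me3 of the lines and 7 in H3K27ac of the lines lost the call.

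Replicate numbers were not taken to pair libraries: same-numbered libraries had correlations of their deviations from -0.049 to 0.198 in the repeated H3K9me3 libraries, and from -0.076 to 0.055 in the lines. With the replicate block the counts were 344, 846 and 712 against D2, B6 and B6-13D2, and 91 and 16 in the lines. With 1 library left in D2 or B6-13D2, that library is assumed to vary like the others. Depth limits H3K9me3, where the median member had 7 or 8 counts in D2-13B6. Reads of near-identical copies limit statements on single copies.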
